A study of Sus scrofa with 8 samples.

Results

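Cytochrome P450 genes of families 1 to 4 were followed in the liver of pigs before and after a steatotic diet. The members are the rows of the expression table whose gene symbol starts with CYP, a family number from 1 to 4 and a letter. They number 22 of the 18103 listed genes and new transcripts and fall into 12 subfamilies: CYP1A, CYP2A, CYP2B, CYP2C, CYP2D, CYP2E, CYP2J, CYP2R, CYP3A, CYP4A, CYP4F and CYP4V. A further 33 genes and new transcripts that the files describe as P450 of these families carry no such symbol and are treated apart at the end.

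P450 enzymes are haem proteins of the endoplasmic reticulum that insert an oxygen atom into lipophilic molecules, with electrons delivered by NADPH-cytochrome P450 reductase (POR) and in part by cytochrome b5. In hepatocytes, families 1 to 3 oxidise most drugs and foreign compounds and also steroids and bile acids, whereas family 4 hydroxylates fatty acids at their omega end. Many of them are induced through ligand-activated receptors, CYP1A through AHR, CYP2B through CAR (NR1I3), CYP3A through PXR (NR1I2) and, in many mammals, CYP4A through PPARA.

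All animals were male Landrace x Large White pigs, sampled after an overnight fast under propofol. The initial state, whose libraries are named Control, was a liver biopsy taken by laparotomy at 4 months of age while the pigs received a control diet. The steatosis group was the same set of animals at 6 months of age, after 2 months on a steatotic diet. That diet was short of methionine and choline, lower in protein than the control diet, and enriched in fructose, cholesterol, cholate and saturated fat. Liver of this group was taken after an anaesthetic overdose. Diet, age and mode of sampling therefore changed together and cannot be told apart. Each group holds 4 libraries, each made of equal amounts of RNA from 2 pigs, and every SD describes the spread between pools, not between animals.

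Expression is given as FPKM, the fragments of a gene relative to its transcript length and to all mapped fragments of the library, and levels of different genes are compared only on this scale. From the step between low values, the depth of each library was estimated as between 91.2% and 100% of the deepest. Pool 1 of the initial state stood apart, since 8 skeletal muscle genes summed to 2809 FPKM there against at most 20.99 in any other library, and 8 stomach genes to 1543 FPKM against at most 29.2. Results were therefore also computed without that pool. The hepatocyte markers were high in all 8 libraries, and 0 of 15 rows passed the limits given below. Their sums leaned lower in steatosis, at 80758 to 95795 FPKM against 95716 to 132303 FPKM in the initial pools. The median log2 fold change over this list was -0.31, against 0.25 over all tested genes. The sums of the groups overlapped, and the highest was that of pool 4 of the initial state, where ALB measured 71003 FPKM. ALB, APOC3 and TTR, the most abundant, had log2 fold changes of -0.40, -0.47 and -0.03, without overlap of the groups for APOC3. The list did not move in 1 direction. TF was higher at 0.61 and, in another entry, at 0.29, both without overlap, and AHSG was at 0.41 with overlap. In the RNA of a whole liver piece, fewer cells of a type and less RNA per cell cannot be told apart.

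Of the 22 members, 21 reached 0.3 FPKM in at least 4 of the 8 libraries and entered the comparison with limma on log2(FPKM + 0.1). A change was called at an adjusted p under 0.01 (Benjamini-Hochberg, over 13175 genes) and a log2 fold change beyond 1. CYP3A22, CYP4A21 and CYP4V2 rose in steatosis, that is 3 of 21, against a background of 6.01% of all tested genes. None fell (0 of 21, background 0.334%), and 3 members were lower at an unadjusted p under 0.05 (background 4.13%). With an adjusted p under 0.01 at any size, 1 member was lower, CYP4F55, where the background is 0.744%. With the pool number as a replicate block, 5 members passed both limits upwards, CYP2B22 and CYP4A24 in addition (background 5.96%), and 0 downwards (background 0.433%). Without pool 1 of the initial state the calls were again CYP3A22, CYP4A21 and CYP4V2.

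All steatosis pools lay above all initial pools for 4 members, CYP2E1, CYP3A22, CYP4A21 and CYP4V2 (background 29.6%), and below them for 1, CYP4F55 (background 2.53%). The groups overlapped for the other 16. The median log2 fold change was 0.47 over the 21 members and 0.25 over all tested genes, so each difference is read against a general upward shift. With libraries scaled to a common median ratio, the median of all genes was -0.01 and CYP3A22, CYP4A21 and CYP4V2 still passed both limits upwards, with CYP4F55 now passing both downwards.

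**Figure D1:**
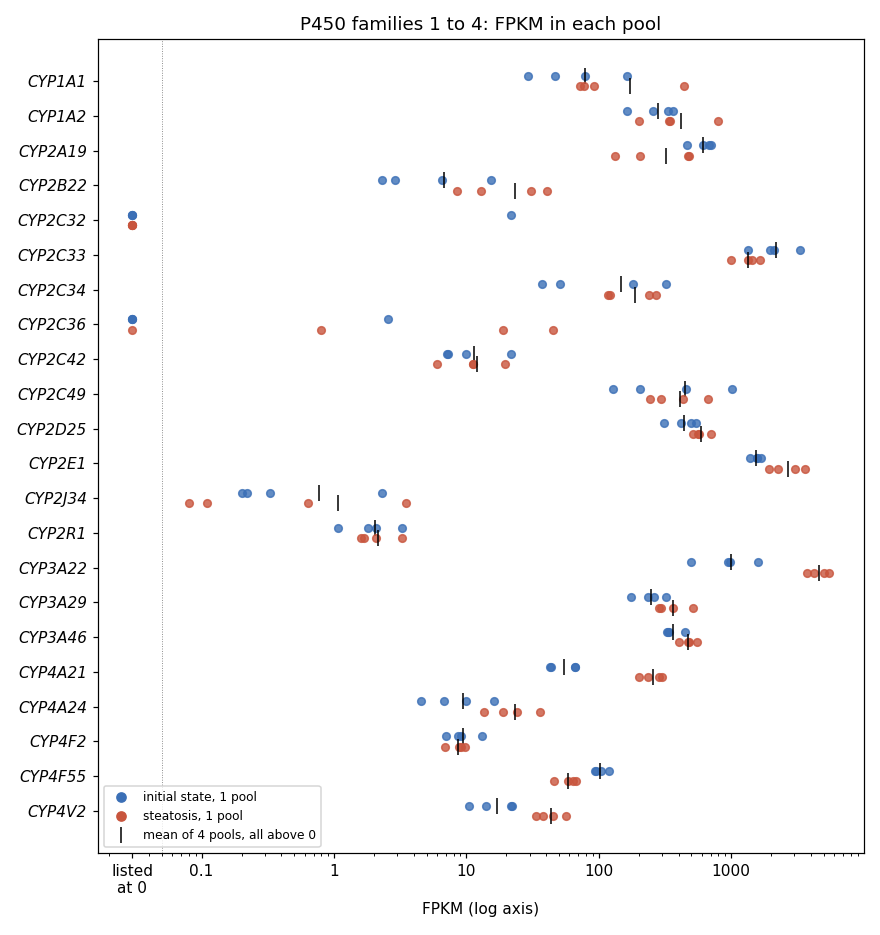
FPKM of the 22 members (log axis) in each of the 4 initial pools (blue) and the 4 steatosis pools (red), with the mean of 4 pools as a black bar where all 4 lie above 0. CYP3A22, CYP4A21 and CYP4V2 show red points that all lie to the right of the blue ones, while CYP2C33, CYP2C34 and CYP2C49 overlap between the groups, and the values of CYP2C32 and CYP2C36 include zeros.

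**Figure D2:**
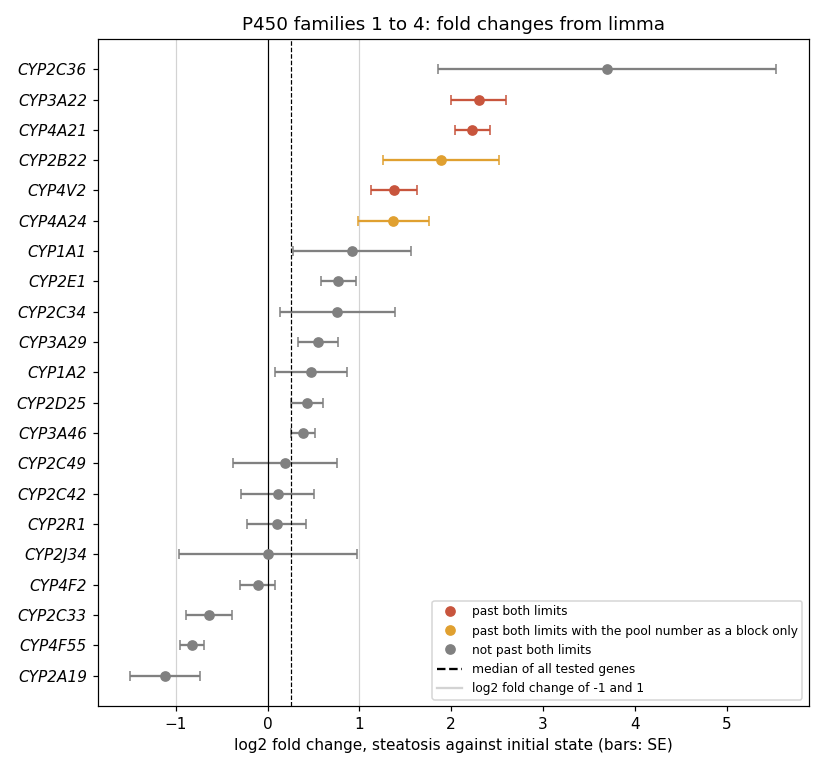
Log2 fold change of the 21 tested members in steatosis against the initial state (points) with its SE (bars), the dashed line at the median of all tested genes, 0.25. Red points pass both limits, yellow ones only with a block for the pool number, and the wide bar of CYP2C36 comes with 3 of 4 initial pools listed at 0.

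The CYP3A genes, the pig counterparts of the main drug and steroid oxidising enzymes of human liver, lie side by side on chromosome 3 of Sscrofa11.1. CYP3A22 (6617256 to 6665179) measured 1591, 500.5, 944 and 973 FPKM in the initial pools 1 to 4. In the steatosis pools 1 to 4 it measured 5023, 4240.2, 5441 and 3713 FPKM. Every steatosis pool was above every initial pool. CYP3A22 rose 4.59-fold in mean FPKM, from 1002 ± 448 to 4604 ± 775 (SD, n = 4 pools), with a log2 fold change of 2.30 (SE 0.30 and adjusted p = 0.000598 from limma). Relative to the median of all tested genes this is 2.05, and leaving out pool 1 of the initial state gave 2.56 (adjusted p = 0.000187). Ordered by mean FPKM, CYP3A22 moved from place 64 to place 10 among the 18103 listed genes.

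The other CYP3A members moved less. CYP3A46 (chromosome 3, 6677911 to 6709855) measured 340, 327, 335 and 451 FPKM in initial pools and 478, 550.03, 468 and 399 FPKM in steatosis, with a log2 fold change of 0.39 (SE 0.13 and adjusted p = 0.055 from limma). CYP3A29 (chromosome 3, 6738502 to 6778121) measured 175, 319, 236 and 262 FPKM and then 295, 518, 284 and 361 FPKM, a log2 fold change of 0.55 (SE 0.22 and adjusted p = 0.0902). Both groups overlapped for both genes, and neither passed the limits. CYP3A22 made up 43.6% to 75.6% of the summed FPKM of the CYP3A members in the initial pools and 79.9% to 87.9% in steatosis. These genes are close relatives, and reads that fit more than one of them may have been split by the estimation of expression.

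Family 4 held both remaining rises and also CYP4F55, the member whose steatosis pools all lay below the initial ones. CYP4A enzymes hydroxylate fatty acids at the omega end, and pig CYP4A21 is known for the 6-alpha-hydroxylation of chenodeoxycholic acid, the step toward hyocholic acid, a main bile acid of the pig. CYP4A21 (chromosome 6, 164672488 to 164715639) measured 43.0, 65.9, 66.6 and 43.5 FPKM in initial pools and 301, 199.9, 283 and 234 FPKM in steatosis. Here the lowest steatosis pool was above the highest initial pool by a wide margin. CYP4A21 rose 4.65-fold in mean FPKM, from 54.8 ± 13.3 to 254.5 ± 46.3 (SD, n = 4 pools), with a log2 fold change of 2.23 (SE 0.19 and adjusted p = 6.32e-05 from limma). It was the 1 member that also passed the treat test of limma, which sets the estimate against a log2 change of 1.

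CYP4A24, the second CYP4A member and also an omega-hydroxylase of fatty acids, lies on the same stretch of chromosome 6 (164496928 to 164518189). It measured 6.79, 16.2, 9.89 and 4.54 FPKM in initial pools and 19.0, 35.9, 24.3 and 13.6 FPKM in steatosis. Pool 2 of the initial state lay above pool 4 of steatosis, so the groups overlapped, but each steatosis pool was between 2.21 and 2.95 times the initial pool of the same number. Its log2 fold change of 1.37 (SE 0.39) came with an adjusted p of 0.0264 from limma, past the limit of size but not of p. With the pool number as a replicate block the adjusted p was 0.000393. Pool 2 was the highest and pool 4 the lowest in both groups.

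CYP4V2, an omega-hydroxylase of medium-chain and long-chain fatty acids that is mutated in a human crystalline retinopathy, is located on chromosome 15 (47038078 to 47068315). Its values were 14.0, 21.9, 21.6 and 10.4 FPKM in initial pools and 33.7, 44.8, 56.1 and 38.2 FPKM in steatosis. No steatosis pool reached down to the initial values. CYP4V2 rose 2.54-fold in mean FPKM (log2 fold change 1.38, SE 0.25 and adjusted p = 0.00326 from limma). This call was lost without pool 2 of steatosis (adjusted p = 0.0116) and without pool 3 of steatosis (adjusted p = 0.0103).

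CYP4F enzymes hydroxylate leukotrienes, vitamin K and long fatty acids. CYP4F55 (chromosome 2, 62051989 to 62071003) measured 93.7, 103.6, 118 and 95.6 FPKM in initial pools and 58.5, 66.9, 63.4 and 45.9 FPKM in steatosis. All 4 steatosis pools lay below all 4 initial pools. The log2 fold change was -0.82 (SE 0.13 and adjusted p = 0.00188 from limma), past the limit of p but not of size. It was -1.09 (adjusted p = 0.000874) with libraries scaled by their median ratio and -1.05 (adjusted p = 0.000972) with upper-quartile scaling, past both limits. Relative to the median of all tested genes the difference was -1.07.

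CYP4F2 (chromosome 2, 61745069 to 61759971), named for the human enzyme that breaks down vitamin K and leukotriene B4, was lower in level than CYP4F55. Its initial pools held 9.09, 8.62, 7.02 and 13.1 FPKM and its steatosis pools 9.75, 9.02, 8.79 and 6.89 FPKM. The groups overlapped, and the log2 fold change was -0.11 (SE 0.19 and adjusted p = 0.69 from limma).

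CYP2E1, which oxidises ethanol, ketones and small solvents and, in the pig, skatole, was among the most abundant members. CYP2E1 (chromosome 14, from 141690737) measured 1552, 1573, 1374 and 1668 FPKM in initial pools and 2234, 3019.6, 3593 and 1935 FPKM in steatosis. All steatosis pools were above all initial pools, and the initial pools were close together whereas the steatosis pools were spread. CYP2E1 had a log2 fold change of 0.77 (SE 0.19) at an adjusted p of 0.0136 from limma, so neither limit was passed. With libraries scaled by their median ratio it was 0.49 (adjusted p = 0.14).

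CYP2A19, the pig member of the coumarin-oxidising and nicotine-oxidising subfamily and the other main skatole-degrading P450 of pig liver, leaned the other way in part of the pools. CYP2A19 (chromosome 6, 49056579 to 49064111) measured 683, 464, 610.1 and 701 FPKM in initial pools and 204, 479.8, 474 and 131.5 FPKM in steatosis. Pools 1 and 4 of steatosis were far below every initial pool, while pools 2 and 3 of steatosis were near the lowest initial pool. The log2 ratio of steatosis to the initial pool of the same number was -1.74, 0.05, -0.37 and -2.41 for pools 1 to 4. The log2 fold change of -1.12 (SE 0.38) had an adjusted p of 0.053 from limma.

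CYP2B22, of the phenobarbital-inducible CYP2B subfamily that CAR controls, is a neighbour of CYP2A19 on chromosome 6 (49158175 to 49173872). It measured 15.3, 2.31, 6.52 and 2.88 FPKM in initial pools and 40.5, 8.49, 30.6 and 12.9 FPKM in steatosis. Both groups overlapped because pool 1 of the initial state was higher than pools 2 and 4 of steatosis. In both groups pool 1 was the highest, then pool 3, pool 4 and pool 2, and each steatosis pool was between 2.64 and 4.64 times the initial pool of its number. For CYP2B22 the log2 fold change was 1.89 (SE 0.63 and adjusted p = 0.0483 from limma), not past the limit of p. With the pool number as a replicate block the SE was 0.15 and the adjusted p was 0.000373. Without pool 1 of the initial state and without a block it was 2.42 (adjusted p = 0.0119).

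The 6 CYP2C members, epoxygenases of arachidonic acid and oxidisers of many drugs, are all on chromosome 14 and differed widely in level. CYP2C33 was the highest of all members in the initial state and lies apart from the others, from 111268751. It measured 2118, 1966, 1339 and 3285 FPKM in initial pools and 1425, 1326, 1003 and 1639.7 FPKM in steatosis. Each steatosis pool was below the initial pool of its number, but the groups overlapped. The log2 fold change was -0.64 (SE 0.25 and adjusted p = 0.0825 from limma), and with the pool number as a replicate block the adjusted p was 0.00818, with the limit of size not reached. Its share of the summed FPKM of all members was 21.6% to 37.1% in the initial pools and 7.64% to 16.4% in steatosis.

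CYP2C49 (106571803 to 106612082) and CYP2C34 (106285170 to 106327579) varied more between pools than between groups. CYP2C49 measured 1011, 128, 205 and 453 FPKM in initial pools and 666, 244, 293 and 434 FPKM in steatosis. CYP2C34 measured 321, 37.1, 51.0 and 182 FPKM in initial pools and 268, 122, 117 and 239 FPKM in steatosis. Pools 1 and 4 were the highest and pools 2 and 3 the lowest in both groups for both genes, and the groups overlapped. Their log2 fold changes were 0.19 (SE 0.57 and adjusted p = 0.82 from limma) and 0.76 (SE 0.63 and adjusted p = 0.386). The direction of CYP2C49 turned with scaling by the median ratio, to -0.08.

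CYP2C36 (106184665 to 106219631) had its 2 highest values in pools 1 and 4 of steatosis. It was listed at 2.57, 0, 0 and 0 FPKM in initial pools and at 44.7, 0.80, 0 and 18.8 FPKM in steatosis. Its adjusted p was 0.156 from limma, and the fitted fold change depends on the pseudocount because zeros are present. CYP2C42 (106666445 to 106701809) measured 7.26, 21.6, 9.87 and 7.12 FPKM in initial pools and 19.7, 11.3, 6.00 and 11.12 FPKM in steatosis, without a separation of the groups (log2 fold change 0.11, SE 0.40 and adjusted p = 0.86), and its direction turned with scaling by the median ratio, to -0.16. CYP2C32 (106437957 to 106473226), the only member not tested with limma, was listed at 21.5 FPKM in pool 1 of the initial state with 0 in the 7 other libraries. The exact permutation test cannot decide here, since with 1 library above 0 its two-sided p is 1 at any value. Pool 1 of the initial state is also the library that held skeletal muscle and stomach transcripts, and their part in the 21.5 FPKM was not tested.

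**Figure D3:**
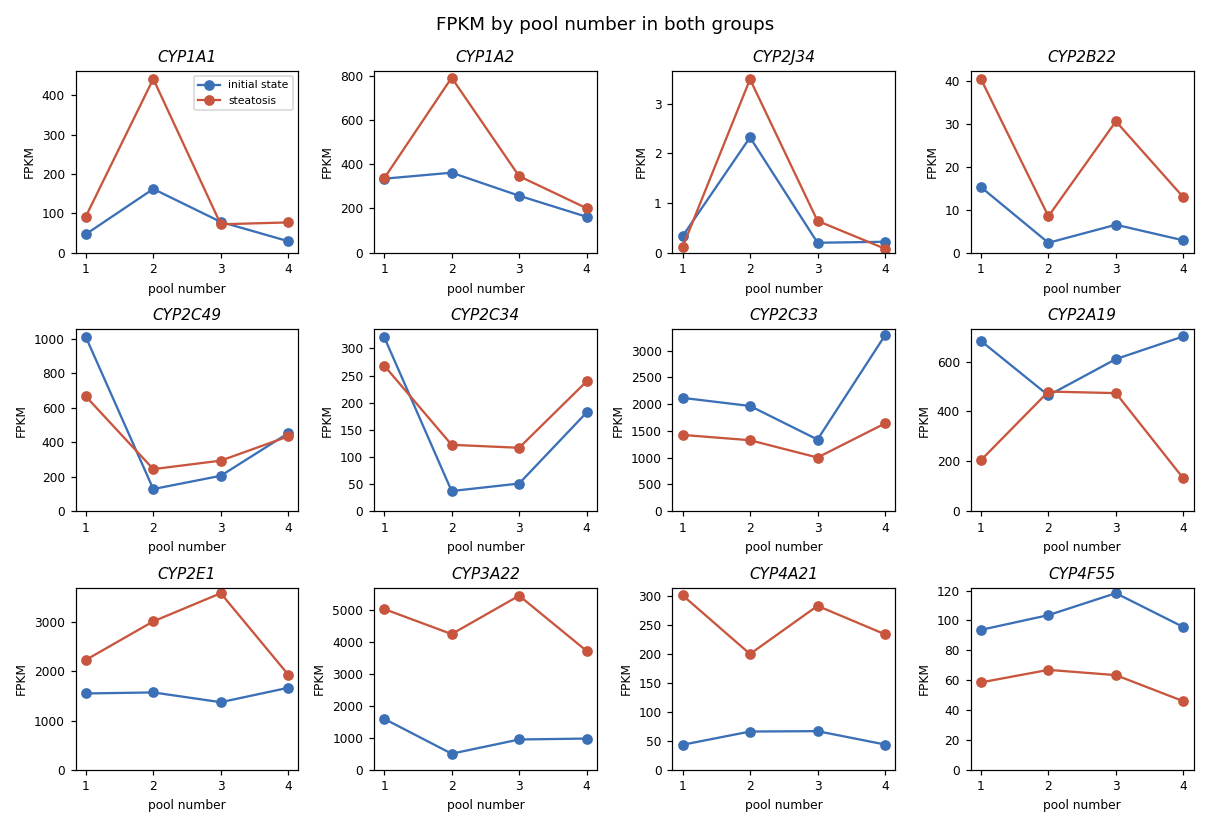
FPKM (linear axes from 0) of 12 members against the pool number 1 to 4, in the initial state (blue) and in steatosis (red). CYP1A1, CYP1A2 and CYP2J34 peak in pool 2 in both groups, CYP2C49 and CYP2C34 are high in pools 1 and 4 in both groups, and CYP3A22, CYP4A21 and CYP4F55 show 2 separate lines.

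CYP1A enzymes, the classical targets of AHR, activate and break down aromatic compounds. CYP1A1 (chromosome 7, 58802887 to 58809155) measured 46.9, 162, 78.3 and 29.2 FPKM in initial pools and 91.9, 442, 72.3 and 77.0 FPKM in steatosis. Its neighbour CYP1A2 (58779529 to 58786155), the more abundant of both in liver, measured 335, 362, 258 and 162 FPKM and then 336, 791, 346 and 201 FPKM. Pool 2 was the highest in each group for both genes, and the groups overlapped. The log2 fold change was 0.92 for CYP1A1 (SE 0.64 and adjusted p = 0.3 from limma) and 0.47 for CYP1A2 (SE 0.39 and adjusted p = 0.384). Without pool 2 of steatosis these were 0.31 and 0.10.

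CYP2D25 and CYP2R1 are the members with a role in vitamin D, which they hydroxylate on its side chain to the circulating form. CYP2D25 (chromosome 5, 6539021 to 6543643) measured 313, 419, 538 and 499 FPKM in initial pools and 703, 569, 562 and 509.6 FPKM in steatosis. Pools 1, 2 and 3 of steatosis lay above every initial pool and pool 4 did not, and the log2 fold change was 0.43 (SE 0.17 and adjusted p = 0.0895 from limma). CYP2R1 (chromosome 2, 44375432 to 44394122) was among the lowest members, with 1.07, 3.25, 2.09 and 1.79 FPKM in initial pools and 1.67, 3.24, 2.07 and 1.59 FPKM in steatosis. Values of CYP2R1 nearly coincided between groups (log2 fold change 0.10, SE 0.32 and adjusted p = 0.826), with a turn to -0.15 on scaling by the median ratio.

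CYP2J34 (chromosome 6, 152468950 to 152496516), of the subfamily that makes epoxides of arachidonic acid outside and inside the liver, was the lowest of the tested members in the initial state apart from CYP2C36. It measured 0.33, 2.32, 0.20 and 0.22 FPKM in initial pools and 0.11, 3.49, 0.64 and 0.08 FPKM in steatosis. Pool 2 was the highest in both groups. At the estimated depth the 8 values correspond to between 3 and 126 fragments, and the log2 fold change was 0.00 (SE 0.97 and adjusted p = 0.999 from limma), with a value of -0.19 on scaling by the median ratio.

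Within a group, the members varied more between pools than the median gene did. The highest pool was in the median 2.34 times the lowest over 20 members with no value of 0 in the initial state and 1.95 times in steatosis, against 1.49 and 1.29 over all tested genes. Over the 586 tested genes with a mean of at least 100 FPKM these ratios were 1.32 and 1.23. The pool number with the highest value was the same in both groups for 11 of the 21 members (52.4%), against 30.4% of all tested genes. These are descriptions, without a test.

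Summed over all 22 members, the P450 level was 8699, 6505, 6211 and 8845 FPKM in initial pools and 12255, 12686, 13128 and 10023 FPKM in steatosis, between 1.15% and 2.48% of the FPKM sum of a library. The mean ratio was 1.59 and the groups did not overlap. Without CYP3A22 the mean ratio was 1.13 and the groups overlapped. For the 5 subfamilies with more than 1 member the ratio of mean sums was 4.33 for CYP4A, 3.37 for CYP3A, 1.65 for CYP1A, 0.707 for CYP2C and 0.599 for CYP4F, with overlap for CYP1A and CYP2C. Among the subfamilies of 1 member it ranged from 0.524 for CYP2A to 3.43 for CYP2B, both with overlap.

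**Figure D4:**
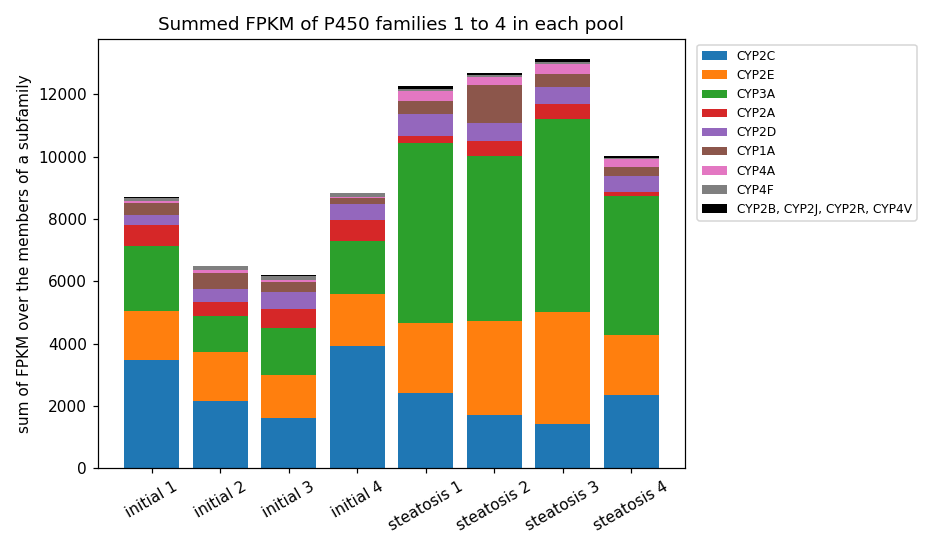
Summed FPKM of the members of each subfamily (stacked bars, linear axis from 0) in the 4 initial and the 4 steatosis pools. The CYP3A part holds from 1147 to 2105 FPKM in initial pools and from 4474 to 6193 FPKM in steatosis, and the CYP2C part is largest in pools 1 and 4 of both groups.

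The proteins that hand electrons to P450 were examined beside their clients, and 0 of 5 tested passed both limits. For this list and those that follow, the background is 6.01% of all tested genes upwards and 0.334% downwards. POR, the reductase, measured 36.7, 47.5, 39.6 and 37.7 FPKM in initial pools and 59.7, 63.4, 71.1 and 61.5 FPKM in steatosis, with no overlap (log2 fold change 0.67, SE 0.10 and adjusted p = 0.00169 from limma). With libraries scaled by their median ratio POR was at 0.39 (adjusted p = 0.0205). CYB5A, cytochrome b5, had a log2 fold change of 0.51 (SE 0.12 and adjusted p = 0.0107). CYB5B, the cytochrome b5 of the outer mitochondrial membrane, was at -0.56 (adjusted p = 0.0402), and the haem-binding membrane proteins PGRMC1 and PGRMC2 at -0.38 (adjusted p = 0.0364) and -0.09 (adjusted p = 0.604).

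Of the receptors and transcription factors that act on these genes, 0 of 11 tested passed both limits. AHR measured 7.06, 8.22, 7.03 and 8.11 FPKM in initial pools and 11.6, 12.5, 13.3 and 13.3 FPKM in steatosis, with no overlap (log2 fold change 0.73, SE 0.10 and adjusted p = 0.0008 from limma). Its partner ARNT had a log2 fold change of 0.53 (adjusted p = 0.00849), and its repressor AHRR stayed under the expression filter. With libraries scaled by their median ratio, AHR was at 0.46 (adjusted p = 0.0183) and ARNT at 0.26 (adjusted p = 0.0855). The receptor of CYP3A induction, NR1I2, had a log2 fold change of 0.11 (adjusted p = 0.367), that of CYP2B induction, NR1I3, 0.52 (adjusted p = 0.0979), and PPARA -0.16 (adjusted p = 0.729).

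RXRA, the shared partner of these nuclear receptors, was at 0.37 (adjusted p = 0.0137), and the oxidative stress factor NFE2L2 at 0.60 (adjusted p = 0.00975). With libraries scaled by their median ratio, RXRA was at 0.09 (adjusted p = 0.497) and NFE2L2 at 0.33 (adjusted p = 0.0696). The hepatocyte factors HNF4A and CEBPA had log2 fold changes of 0.04 and 0.51 and the glucocorticoid receptor NR3C1 0.31, with adjusted p from 0.0898 to 0.757 in limma.

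Among 4 other AHR target genes, 2 were tested and 0 changed, with NQO1, a quinone reductase, at a log2 fold change of 0.98 (adjusted p = 0.0503 from limma). Of 10 PPARA target genes, 1 rose, FABP1, the fatty acid binding protein of liver (log2 fold change 1.22, adjusted p = 0.00775), and 0 fell, with a median log2 fold change of -0.24 over the list. FABP1 did not pass with a block for the pool number (adjusted p = 0.0161), nor with libraries scaled by their median ratio (log2 fold change 0.95). ACADM, an enzyme of mitochondrial fatty acid oxidation, was lower without overlap at -0.74 (adjusted p = 0.00714), and it passed both limits downwards with that scaling (log2 fold change -1.01, adjusted p = 0.00311). The flavin monooxygenases, another oxidising family of the same membrane, had 0 of 4 tested genes changed, with a log2 fold change of 0.63 for FMO1 (adjusted p = 0.0451).

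Of P450 genes outside families 1 to 4, 11 were tested, 1 rose and 1 fell. CYP7A1, the rate-limiting enzyme of bile acid synthesis, measured 11.8, 4.77, 8.91 and 12.6 FPKM in initial pools and 50.8, 18.6, 48.1 and 36.4 FPKM in steatosis, a log2 fold change of 1.99 (SE 0.37 and adjusted p = 0.00362 from limma). With libraries scaled by their median ratio it was 1.72 (adjusted p = 0.0172), no longer past the limit of p. CYP51, the lanosterol demethylase of cholesterol synthesis, measured 80.4, 79.96, 72.7 and 92.2 FPKM and then 46.2, 13.8, 10.8 and 15.2 FPKM, a log2 fold change of -2.16 (SE 0.37 and adjusted p = 0.00268).

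Markers of other cells and zones of the liver were read in the same libraries. The summed level of 10 markers of pericentral hepatocytes, the zone where many P450 genes are highest, was 661 to 904 FPKM in initial pools and 1085 to 1254 FPKM in steatosis, and 0 of 10 passed the limits. LECT2 and RGN, with log2 fold changes of 0.43 (adjusted p = 0.0938) and 0.84 (adjusted p = 0.000784), made up most of that sum. OAT, of the same list, was lower without overlap at -1.30 (adjusted p = 0.0113), and passed both limits downwards with a block for the pool number (adjusted p = 0.00374) and with libraries scaled by their median ratio (log2 fold change -1.57, adjusted p = 0.00672). The sum of 10 periportal markers was 4544 to 7200.04 FPKM and then 3382 to 3878 FPKM, with 1 rise, PIGR. Over that list the median log2 fold change was -0.31. PCK1, whose mean went from 1698 to 794 FPKM, was lower without overlap at -1.03 (adjusted p = 0.0131 from limma). ASS1 was lower without overlap at -0.99 (adjusted p = 0.0189). With libraries scaled by their median ratio, PCK1 passed both limits downwards (log2 fold change -1.30, adjusted p = 0.0061). Macrophage markers had 2 rises of 11 (MARCO with a log2 fold change of 3.33 and CD68 with 2.01), and their sum went from 892 to 1204 FPKM in the initial pools to 1271 to 1481 FPKM in steatosis. CD5L, of the same list, was lower without overlap at -0.34 (adjusted p = 0.0709 from limma). The CD68 row used here is a different gene entry from the one that the paper gives as CD68 among its selected transcripts. Among cholangiocyte markers SPP1 rose (log2 fold change 4.54, adjusted p = 5.6e-05), while KRT19, which defines these cells, had a log2 fold change of 0.18 (adjusted p = 0.827).

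Markers of stellate cells had 1 rise of 10, LRAT, whose log2 fold change was 1.25 and 0.99 with scaling by the median ratio. Their sums were 255, 147, 108 and 63.1 FPKM in initial pools 1 to 4 and 117 to 289 FPKM in steatosis. In pool 1 of the initial state, which held skeletal muscle transcripts, DES measured 71.6 FPKM, against 3.23 to 7.39 FPKM in the other initial pools. LUM, of the same list, was lower with overlap at -1.67 (adjusted p = 0.0361 from limma). Markers of endothelium had 0 of 8 past the limits (140.2 to 171 FPKM and 188 to 199.8 FPKM). Those of lymphocytes had 1 rise and 1 fall of 9 (NKG7 and MS4A1, 46.6 to 99.3 FPKM and 75.0 to 82.7 FPKM), and acute phase genes 0 of 10. The part of any of these in the P450 values was not tested. None of the markers of the lists named here was listed at 0 in all libraries.

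Of the 33 P450 genes and new transcripts without a family symbol, 20 were tested and 1 rose (background 6.01%), with 0 that fell (background 0.334%). The genes named in this paragraph were chosen after their values were seen. LOC100627285, described as CYP4A24-like, lies between the other CYP4A genes on chromosome 6 (164485223 to 164494306). It measured 40.0, 61.1, 55.9 and 58.3 FPKM in initial pools and 233, 138, 205 and 197.6 FPKM in steatosis, without overlap (log2 fold change 1.84, SE 0.18 and adjusted p = 0.000148 from limma). Of the 7 CYP4A genes that are no members, 6 were tested, 1 rose, and 4 passed both limits upwards with the pool number as a replicate block (background 5.96%). With all 9 CYP4A genes summed, the level was 112 to 204 FPKM in initial pools and 472 to 624 FPKM in steatosis, 3.59 times higher in the mean. The sum of all 8 CYP4F genes was 192 to 234 FPKM and then 139 to 197 FPKM, with overlap. LOC110259328, described as CYP4F2-like, had a log2 fold change of 0.11 (SE 0.14 and adjusted p = 0.575). LOC110255237, described as CYP4F6-like, was at 1.21 (SE 0.31 and adjusted p = 0.0182), and with the pool number as a replicate block it passed both limits upwards (adjusted p = 0.00559).

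A pool pattern of a member was in places present in its neighbours too. LOC100524940 and LOC100525112, described as CYP2J2 and CYP2J2-like, were highest in pool 2 of both groups, at 0.85 and 1.12 FPKM in the initial state and 1.29 and 1.02 FPKM in steatosis, as CYP2J34 was. LOC102165015, described as CYP2B4-like, was highest in pool 1 of both groups, at 16.2 and 11.3 FPKM, as CYP2B22 was. LOC100739741, described as CYP2C23-like and next to CYP2C33 on chromosome 14 (111234004 to 111262638), was lower in steatosis in each pool number, with a log2 fold change of -0.57 (SE 0.21 and adjusted p = 0.0625 from limma). Near-identical copies can share reads, so equal patterns of neighbours are not independent of each other.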

How the data were processed

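The authors filtered the reads, mapped them with HISAT2 (2.0.4 per the submitters' processing notes) to Sus scrofa 11.1, merged new coding transcripts with the reference and estimated expression with Bowtie2 (2.2.5) and RSEM (1.2.12). FPKM values were deposited by the authors with no scaling between libraries stated. RSEM divides reads that fit several genes, so single CYP2B, CYP2C, CYP3A, CYP4A and CYP4F values are uncertain to that extent. Deposited comparisons of pools of the same number hold the authors' fold changes, p-values and false discovery rates, which were not used. Only gene lengths were taken from them, to estimate depth from FPKM up to 0.3 in genes of 350 to 900 bases, with 80 bases subtracted.

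The filter kept genes that reached 0.3 FPKM in 4 or more of 8 libraries. They were tested with limma 3.58.1 (R 4.3.3) after a log2(FPKM + 0.1) transformation, which understates the change of low genes, with the variance trended on the mean and group as the only term. The limits are those of the study. On simulated data with 200 changed genes of 13175, 87 of 97 at a log2 change of 2 and 100 of 103 at 3 were recovered and 5 unchanged genes were called. Python 3.11.15 and matplotlib 3.10.9 were used for tables and plots. Positions are those of RefSeq for Sscrofa11.1, matched for 22 of 22 members. The counting error of the FPKM values is not given with them, so precision is described by the SD between pools and the SE from limma.

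The members and lists were chosen with earlier results of these data known. Every member is named with all 8 values, and at most 3 genes of each list, the called ones with the largest change or otherwise the most abundant, except that electron partners and receptors are given in full apart from what is not reported here. The naming of TF, AHSG, KRT19, OAT, ACADM, PCK1, ASS1, CD5L, DES, LUM and the LOC genes came after their values were known.

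The sources do not say that pools of the same number hold the same pigs. Deviations from the group means showed correlations of 0.16, 0.35, 0.32 and 0.25 for pool numbers 1, 2, 3 and 4, so the pool number was taken to pair the libraries and served as a replicate block in an alternative fit, in which the count of higher members was 5. Other alternatives were the pseudocount, the filter, 3 scalings, the trend, limma's treat test, other limits of p and each library left out in turn.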

Additional observations from a re-analysis of the deposited data

Results flagged for a closer look

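In 6 of the 43 groups of 4 pools examined, 1 pool lay apart from the others by Dixon's criterion. Its rate of about 1 of 20 groups by chance holds for independent, normally distributed values. FPKM values need not be so, and no excess is read from this count. Pool 2 was the one apart for CYP1A1 in steatosis, at 442.07 FPKM, and for CYP2J34 in both groups, at 2.32 FPKM in the initial state and 3.49 FPKM in steatosis. Pool 1 of the initial state, which holds skeletal muscle and stomach transcripts, was apart for CYP2C32 at 21.53 FPKM and for CYP2C36 at 2.57 FPKM, where the other 3 initial pools were listed at 0. With 3 pools at 0, any value above 0 in the remaining pool meets the criterion. Pool 4 of the initial state was apart for CYP3A46, at 451.03 FPKM.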

How the results depend on the processing

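CYP3A22, CYP4A21 and CYP4V2 passed both limits under each pseudocount, filter, scaling and trend tried and with the pool number as a replicate block. The count of members higher, 3, was 5 with that replicate block, 5 at an adjusted p of 0.05, 1 with limma's treat test and from 2 to 3 with each library left out. The count lower, 0, was 1 with median-ratio and with upper-quartile scaling (CYP4F55). The block changed no call of a member other than CYP2B22 and CYP4A24. Reversals occurred only in members that were not called. With median-ratio and upper-quartile scaling the log2 fold change was -0.16 and -0.13 for CYP2C42, -0.08 and -0.04 for CYP2C49, -0.19 and -0.16 for CYP2J34, and -0.15 and -0.12 for CYP2R1. With each library left out it ranged from -0.17 to 0.46 for CYP2C42, -0.26 to 0.73 for CYP2C49, -0.89 to 0.70 for CYP2J34, -0.15 to 0.35 for CYP2R1 and -0.24 to 0.06 for CYP4F2. The causes were not tested. CYP2J34 and CYP2C36 gave no value with the filter at 1 FPKM. With 4 pools per group, members whose pools of 1 group differ severalfold, such as CYP2C36, CYP2J34, CYP1A1 and CYP2C34, have SE from 0.63 to 1.84 in the fit without the block, where differences of 1 on the log2 scale could not be told from 0 in them. With the block their SE was 1.0, 0.41, 0.24 and 0.29.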
